A study of Canis lupus familiaris with 20 samples.

Results

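In the epiphyseal cartilage of dogs with mucopolysaccharidosis VII (MPS VII), 69 genes were lower than in control dogs at both ages that were sampled. They made up 0.474% of the 14550 genes tested. A gene was a member when its mean level on the log2 CPM scale (CPM is a gene's count scaled to a common library size, and a prior count of 2 was added) was at least 1 lower in affected dogs, which is 2-fold, at both ages. In addition, the highest affected library had to lie below the lowest control library at each age. Of 71 genes that met this, 2 are not reported here. Since the differences between genotypes chose the members, those differences are given here as a description, without a test.

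Affected dogs were homozygous for a naturally occurring missense change in the GUSB gene, and control dogs were heterozygous and matched by litter, so every animal of the study carried at least 1 changed copy. There were 5 control and 5 affected dogs at postnatal day 9 and 5 control and 5 affected dogs at postnatal day 14. Each animal gave 1 RNA-seq library, made from epiphyseal tissue of both sides of its T12 vertebra. In such bulk tissue, fewer cells of a type and less RNA per cell cannot be told apart.

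MPS VII is a lysosomal storage disease in which the enzyme beta-glucuronidase is deficient and glycosaminoglycans, the sugar chains of cartilage proteoglycans, accumulate. The ends of a young vertebra are cartilage that turns into bone by endochondral ossification: chondrocytes enlarge, the matrix around them mineralises, matrix-degrading proteases and resorbing cells open it to blood vessels, and osteoblasts lay down bone. The study profiled gene expression around the failure of this step in MPS VII. The identifiers of the count table did not match the symbol table used here (0 matches), so genes are given by their position in the dog genome CanFam3.1, and the roles of single genes are not stated. For the same reason the labelled tissue was not checked against marker genes, and the level of GUSB was not examined in any library.

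Total counts ran from 21419930 to 28028365 per library at day 9 and from 15772761 to 22471728 at day 14, so depth was lower on average at day 14 in both genotypes, and its part in the changes with age was not tested. Replicate 3 of the affected dogs at day 9 stood apart from the rest of its group. Of all tested genes, 33.1% were lowest and 37.3% highest in that library among the 5 of its group. Differences at day 9 that rest on it are given below with and without it.

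The members covered a wide range of abundance. Their mean over the control libraries of both ages ran from 0.468 to 2091 CPM, with 9 members at 100 CPM or more and 33 members under 10 CPM. Per kilobase of exon, the scale on which genes can be compared with each other, the control level ran from 0.149 to 905 CPM per kb with a median of 4.41. The median member stood at 6.81 CPM in control dogs and at 1.66 CPM in affected ones at day 9, and at 13.9 CPM and 2.94 CPM at day 14. The median over all tested genes was 12.2 to 12.7 CPM in the 4 groups. In affected dogs 29 members at day 9 and 24 members at day 14 had a mean under 1 CPM, against 12 and 2 members in controls.

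The difference between genotypes was larger at day 14 than at day 9 in 52 of the 69 members. On the log2 CPM scale the members' differences (affected minus control) ran from -3.67 to -1.02 at day 9 with a median of -1.83, and from -5.66 to -1.002 at day 14 with a median of -2.38. Over all tested genes the medians were 0.01 and 0.02. A difference of at least 4-fold was found in 26 members at day 9 and in 41 members at day 14, and one of at least 8-fold in 5 and 22 members. With edgeR's quasi-likelihood test, 65 members had an adjusted p under 0.05 at day 9 and 66 members at day 14, where 2.21% and 10.7% of all tested genes were called lower. These counts follow from the choice of members and nothing is read from them. The counts by size of the difference, at 4-fold, at 8-fold and between the ages, also come from the values that chose the members. Shares over all tested genes were not computed for them, so they too are a description.

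The summed level of the members separated the genotypes at each age, while the affected libraries of both ages overlapped. It was 2245 to 4363 CPM in the control libraries of day 9 and 536 to 1288 CPM in the affected libraries of that day. At day 14 the control libraries held 6636 to 9902 CPM and the affected libraries 1071 to 1955 CPM. The control mean was thus 3.65-fold the affected mean at day 9 and 6.297-fold at day 14. The 2 most abundant members held 59.9% of the sum in day 14 controls and 34.9% in affected dogs of that age. In 49 members the group means followed one order, highest in day 14 controls, then day 9 controls, then affected dogs of day 14, and lowest in affected dogs of day 9. In 11 others the affected means were in the opposite order. All 5 affected libraries of day 14 lay below all 5 control libraries of day 9 in 37 members, where 10.9% of all tested genes did so. Both groups were part of the rule in opposite directions, so this count too is a description. The same holds for the counts by order of the group means, since the rule set controls above affected dogs at each age. Shares over all tested genes were not computed for those orders.

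**Figure D1:**
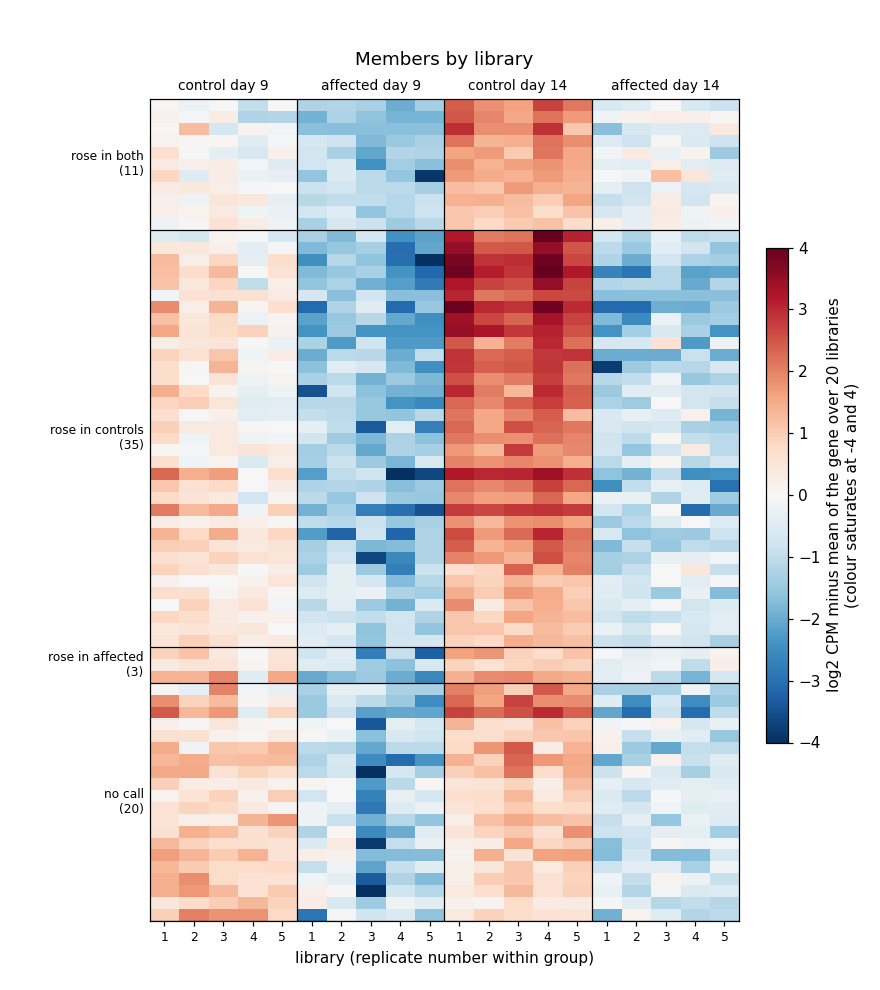
Level of each of the 69 members (rows) in each of the 20 libraries (columns, by group and replicate number), as log2 CPM minus the gene's mean over all libraries. Rows are grouped by the test of the change with age (11 members called higher at day 14 in both genotypes, 35 in controls, 3 in affected dogs, 20 in neither); control libraries of day 14 are the highest block in most rows, and affected day 9 replicate 3 is the lowest of its group in 15 of the 20 rows without a call.

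Of the 6 members with the most counts in controls, the first was ENSCAFG00000015043, on chromosome 5 from 28853642 to 28864897, with 10 exons. Its 5 control libraries of day 9 held 1109, 687, 985, 591 and 722 CPM, and the affected libraries of that age 273, 318, 183, 246 and 194 CPM. At day 14 the controls held 4005, 2459, 2826, 4633 and 2896 CPM, and the affected dogs 310.0, 341, 597, 238 and 278 CPM. Its day 14 controls lay above all other libraries of the study, and its affected libraries of day 14 reached the range of day 9 controls in 1 dog. Per kilobase of exon this was the most abundant member, at 905 CPM per kb in controls.

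The second was ENSCAFG00000009905, on chromosome 24 from 33273918 to 33281411, with 13 exons. Its control libraries of day 9 held 1016, 582, 689, 214 and 461 CPM, and the affected ones 65.1, 97.4, 36.4, 29.4 and 21.2 CPM. At day 14 the controls held 1657, 1516, 1707, 1785 and 1653 CPM, and the affected dogs 140, 99.9, 236, 28.1 and 59.9 CPM. Controls of day 9 were thus spread over a wide range while those of day 14 lay close together. With mean differences of -3.61 at day 9 and -4.22 at day 14 on the log2 CPM scale it was also among the 4 members with the largest difference over both ages.

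A gene on chromosome 23 from 43979890 to 44033399, with 21 exons, held 400.1 CPM ± 91.5 (SD, n = 5, as in all such values here) in controls and 127 CPM ± 67.4 in affected dogs at day 9. At day 14 it held 459, 516, 1468, 749 and 1161 CPM in controls, while affected dogs held 111, 150, 282, 391 and 149.6 CPM. Relative to the mean, the day 14 controls were spread more widely than in the other five of these genes, with replicate 3 highest. A gene on chromosome 3 from 19778971 to 19948202, with 13 exons, went from 109.7 CPM ± 24.4 to 327 CPM ± 42.0 between the ages in controls and from 44.5 CPM ± 20.7 to 85.4 CPM ± 20.7 in affected dogs. Its difference at day 9 was -1.41 on the log2 CPM scale with all libraries and -1.15 without affected replicate 3.

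The other two of the 6 had control levels that did not differ between the ages by the test. On chromosome 4, a gene from 59577829 to 59588001 with 3 exons held 343, 460.1, 213, 189 and 192 CPM in day 9 controls and 149, 255, 272, 194 and 239 CPM in day 14 controls. In affected dogs it held 114, 97.7, 12.6, 54.9 and 38.0 CPM at day 9, and 115, 65.2, 142, 108 and 68.3 CPM at day 14. Its difference at day 9 was -2.40 on the log2 CPM scale with all libraries and -1.91 without affected replicate 3. On chromosome 5, a gene from 81142888 to 81169331 with 8 exons held 230 CPM ± 65.0 and 168 CPM ± 42.6 in controls of both ages, and 111, 98.9, 1.90, 55.1 and 42.9 CPM in affected dogs at day 9. The value of 1.90 CPM, in replicate 3, was far below the rest of its group, and without that library the difference at day 9 went from -2.67 to -1.64 on the log2 CPM scale.

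**Figure D2:**
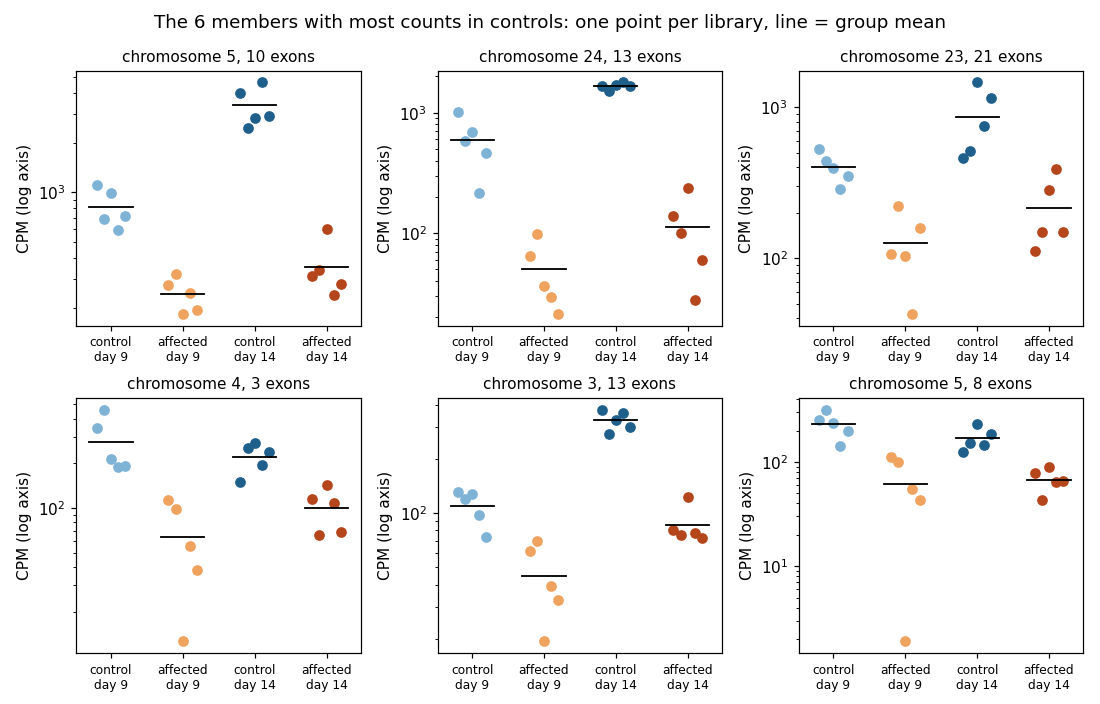
CPM (log axis) of the 6 members with the most counts in controls, one point per library and a line at each group mean, in the 4 groups of 5 dogs. In each panel the affected libraries lie below the control libraries of the same age; the chromosome 4 gene and the chromosome 5 gene with 8 exons have a single very low affected library at day 9 (12.6 and 1.90 CPM).

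The largest differences over both ages, besides the chromosome 24 gene, were in 3 members that were low in every affected library. On chromosome 5, a gene from 28978383 to 28986863 with 11 exons held 12.1 CPM ± 6.93 in day 9 controls against 1.195 CPM ± 1.10 in affected dogs of that age, and 39.95 CPM ± 5.20 against 1.26 CPM ± 0.6101 at day 14. On chromosome 29, a gene from 32336302 to 32380452 with 8 exons held 14.8, 10.5, 15.8, 6.61 and 9.58 CPM in day 9 controls and 96.3, 56.6, 46.4, 114 and 60.0 CPM in day 14 controls. Its affected libraries held 1.81, 2.17, 2.53, 1.13 and 0.643 CPM at day 9 and 0.918, 0.762, 2.85, 1.38 and 1.455 CPM at day 14. The affected dogs thus covered the same low range at both ages while controls moved up. On chromosome 2, a gene from 43025648 to 43109307 with 22 exons held 1.5 CPM ± 0.858 in day 9 controls and 8.27 CPM ± 3.09 in day 14 controls. It held 0, 0.251, 0.474, 0 and 0.184 CPM in affected dogs at day 9, and 0, 0, 0.112, 0.106 and 0.194 CPM at day 14.

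Of the 69 members, 1 had no count in any affected library of day 9 and another had none in any affected library of day 14. The first, on chromosome 10 from 10406866 to 10411698, held 30 counts over the day 9 controls and was lower in the affected group by at least 9.99-fold when its group total was set to a floor of 3 counts. With every count halved, which allows for read pairs that were counted double, this bound was 4.997-fold. The second, on chromosome 13 from 44944265 to 44966954, held 181 counts over the day 14 controls and by the same floor was lower in the affected group by at least 56.1-fold (28.1-fold with halved counts). Both genes reached the filter on low counts only when the day 14 controls were counted. As the rule chose members low in affected dogs, these folds are a description. These bounds allow for counting error only in the group with no counts. The counts of the higher group were taken as observed, and spread between animals is not covered.

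The change from day 9 to day 14 was a contrast that the rule did not use, although its libraries are the same ones. The ages were sampled in different animals, the labels give no litter number, and the fit had no term for litter. The part of litter in the changes with age was not tested. In control dogs 46 of the 69 members (66.7%) rose with age (edgeR, quasi-likelihood F test, p adjusted over all tested genes by Benjamini and Hochberg), where 21.8% of all tested genes rose. None of the 69 fell by this test, where 20.7% of all tested genes did; 2 members were lower at an unadjusted p under 0.05 (25.6% of all tested genes), DESeq2 called 0 lower (20.5%), and a fit of the control libraries alone called 2 lower (26.9%). The members' median log2 fold change was 1.38, from -0.95 to 3.46, against a median of -0.06 over all tested genes. At least 2-fold rises were called in 38 members, where 8.86% of all tested genes had one. All 5 controls of day 14 lay above all 5 of day 9 in 44 members, where 20.2% of all tested genes did so. Of the members, 10 reached the filter on low counts only when the day 14 controls were counted. Of these, 5 rose, and among the other 59, 41 rose. Among the same 59, a rise of at least 2-fold was called in 33. All 5 controls of day 14 lay above all 5 of day 9 in 40 of them.

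The 4 members with the largest rises in controls had no call with age in affected dogs by edgeR on all libraries. On chromosome 25, a gene from 14985731 to 15075792 with 10 exons held 2.65, 2.39, 4.32, 3.71 and 2.42 CPM in day 9 controls and 36.7, 16.8, 18.0, 63.7 and 34.1 CPM in day 14 controls. Its log2 fold change with age was 3.46 ± 0.36 (SE, edgeR adjusted p = 3.74e-07) in controls and 0.75 ± 0.39 (adjusted p = 0.161) in affected dogs, which held 1.30 CPM ± 0.687 and 2.21 CPM ± 0.579. Its controls of day 14 were widely spread, yet the lowest was above every control of day 9.

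On chromosome 32, a gene from 24381289 to 24405528 with 8 exons held 6.07, 6.15, 5.24, 3.25 and 4.34 CPM in day 9 controls and 52.0, 25.3, 25.9, 52.1 and 26.3 CPM in day 14 controls, which is a rise of 2.85 ± 0.29 on the log2 scale (edgeR adjusted p = 2.40e-07). In affected dogs it held 1.20 CPM ± 0.489 and 2.21 CPM ± 0.759, with a log2 fold change of 0.86 ± 0.33 and an edgeR adjusted p of 0.0635. DESeq2 called this change (0.90, adjusted p = 0.0249), as did edgeR in 4 fits that left out 1 library, namely affected day 9 replicate 3, control day 14 replicate 1 or 4, or affected day 14 replicate 5 (adjusted p = 0.0416 to 0.049). On chromosome 14, a gene from 13542668 to 13614146 with 27 exons rose by 2.73 ± 0.39 in controls (edgeR adjusted p = 1.42e-05), from 2.22 CPM ± 0.919 to 14.9 CPM ± 5.98. In affected dogs it held 0.251 CPM ± 0.237 and 0.526 CPM ± 0.177. The chromosome 29 gene with 8 exons rose by 2.70 ± 0.33 in controls (edgeR adjusted p = 3.86e-06), with every day 14 control above every day 9 control. In all 4 of these genes replicates 1 and 4 of the day 14 controls were the highest of their group.

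Among the 6 most abundant members, 4 rose in controls. The chromosome 5 gene with 10 exons rose by 2.04 ± 0.25 (edgeR adjusted p = 2.37e-06) and the chromosome 3 gene by 1.57 ± 0.26 (edgeR adjusted p = 6.78e-05). The chromosome 24 gene rose by 1.49 ± 0.48 (edgeR adjusted p = 0.0184). The chromosome 23 gene with 21 exons rose by 1.12 ± 0.41 (edgeR adjusted p = 0.0332), but its day 14 controls overlapped those of day 9, and the call was lost without 1 of 6 control libraries (log2 fold change 0.87 to 1.16). Without replicate 2, 3, 4 or 5 of day 9 or replicate 3 or 5 of day 14 its edgeR adjusted p was 0.0505 to 0.0998. The chromosome 4 gene and the chromosome 5 gene with 8 exons stood at -0.33 ± 0.41 and -0.45 ± 0.53 (edgeR adjusted p = 0.533 and 0.511).

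In affected dogs 14 of the 69 members (20.3%) rose with age by the same test, where 12.7% of all tested genes rose, and 0 fell, where 9.92% did; 1 member was lower at an unadjusted p under 0.05 (19.4% of all tested genes) and DESeq2 called 0 lower (10.3%). The median log2 fold change was 0.59, from -2.82 to 4.46, against -0.09 over all tested genes. All 5 affected libraries of day 14 lay above all 5 of day 9 in 6 members, where 7.96% of all tested genes did so. The count depended on single libraries: it was 9 when replicate 4 of day 9 was left out, 21 when replicate 2 of day 9 was, and 10 when replicate 3 of day 14 was, all of affected dogs. In a fit of the affected libraries alone it was 4, where 8.42% of all tested genes rose, and 14 members did not pass the filter of that fit. Whether a member's change with age differed between genotypes was not tested, because that difference is made of the 2 contrasts that chose the members. As a description, the change in affected dogs minus that in controls had a median of -0.53 on the log2 scale and was below 0 in 52 members.

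The 4 members with the largest called change in affected dogs were of low abundance, and 3 of them were called in controls as well. One of these 3, the chromosome 10 gene from 10406866, reached the filter on low counts only through the day 14 controls. Its call in controls is therefore a description. On chromosome 14, a gene from 46891691 to 46947331 with 8 exons held 0.182, 0.334, 0.237, 0.188 and 0.184 CPM in affected dogs of day 9 and 0.827, 1.047, 1.12, 1.059 and 0.9697 CPM at day 14, which is a rise of 2.12 ± 0.36 on the log2 scale (edgeR adjusted p = 2.27e-04). It rose by 2.37 ± 0.32 in controls (edgeR adjusted p = 5.38e-06), from 0.7502 CPM ± 0.377 to 3.95 CPM ± 1.05. The 5 affected libraries of day 14 lay above all 5 of day 9, and the gene moved by a similar fold in both genotypes at different levels.

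On chromosome 29, a gene from 20175654 to 20595435 with 19 exons rose by 1.88 ± 0.48 in affected dogs (edgeR adjusted p = 0.00831) and by 1.51 ± 0.44 in controls (edgeR adjusted p = 0.00822). In a fit of the affected libraries alone, its edgeR adjusted p in affected dogs was 0.068. On chromosome 27, a gene from 41108016 to 41217919 with 18 exons rose by 1.43 ± 0.46 in affected dogs (edgeR adjusted p = 0.0286), from 0.206 CPM ± 0.0837 to 0.566 CPM ± 0.251, and stood at 0.31 ± 0.35 in controls (edgeR adjusted p = 0.495). Its call was lost without any 1 of 5 affected libraries, replicates 1, 4 and 5 of day 9 and replicates 1 and 2 of day 14 (edgeR adjusted p = 0.0512 to 0.0722). The chromosome 10 gene had the largest fitted value, but it held 0 counts over the affected libraries of day 9 and 12 counts over those of day 14, which is a rise of at least 4.56-fold by the group floor of 3 counts (2.28-fold with halved counts). These values take the 12 counts as observed, so counting error in them is not covered. Without affected day 14 replicate 5 its edgeR adjusted p was 0.0591.

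**Figure D3:**
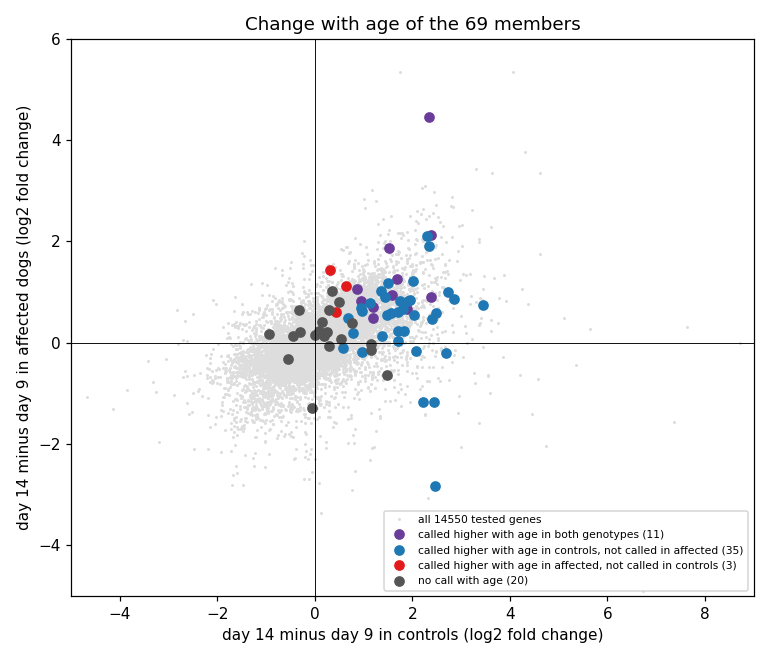
Log2 fold change from day 9 to day 14 in controls (x) and in affected dogs (y) for the 69 members, coloured by whether edgeR called the change, over all 14550 tested genes in grey. Most members lie right of 0 on the x axis (63 of 69) and close to or above 0 on the y axis (56 of 69); the isolated point at the top is the chromosome 10 gene with 12 counts.

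The 69 members therefore fell into 4 sets by the test of age. In 35 the rise was called in controls and not in affected dogs, where 11.7% of all tested genes were. In 11 it was called in both (10.1% of all tested genes), in 3 in affected dogs and not in controls (2.63%), and 20 had no call in either genotype (51%). The 20 without a call had a median mean level of 8.57 CPM in controls, with 4.03 CPM in affected dogs, at day 9, and of 11.2 CPM and 4.46 CPM at day 14. The 35 had medians of 5.31 and 1.30 CPM at day 9 and 19.8 and 2.05 CPM at day 14. The sets were cut at a p-value, so a member near the threshold could stand on either side. Among the 59 members that reached the filter without the day 14 controls, the 4 sets held 31, 10, 3 and 15, in the order above. Among the 55 that reached it on the affected libraries alone, they held 28, 10, 2 and 15. For members with few counts in affected dogs, a missing call there can reflect low counts.

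The levels of the 46 members that rose in controls and of the 20 without a call are given by library as a description, since the test on these same libraries set which of them separate the ages. The median of the 46, as log2 CPM minus the gene's mean, was -0.01 to 0.68 in day 9 controls and 1.73 to 2.44 in day 14 controls. The median of the 20 was 0.60 to 1.12 and 0.53 to 1.11 in the same libraries. Among day 14 controls, replicates 1 and 4 had the highest medians of the 46 (2.24 and 2.44) and the 2 lowest medians of the 20 (0.53 and 0.70). In affected dogs of day 14 the medians were -0.95 to -0.32 for the 46 and -0.82 to -0.46 for the 20, and replicate 3 was highest in both. That library was the highest of its group in 37 of the 69 members, while control day 9 replicate 4 was the lowest of its group in 35. The shares over all tested genes were not computed for these libraries, so the counts are not read as a trait of the members.

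**Figure D4:**
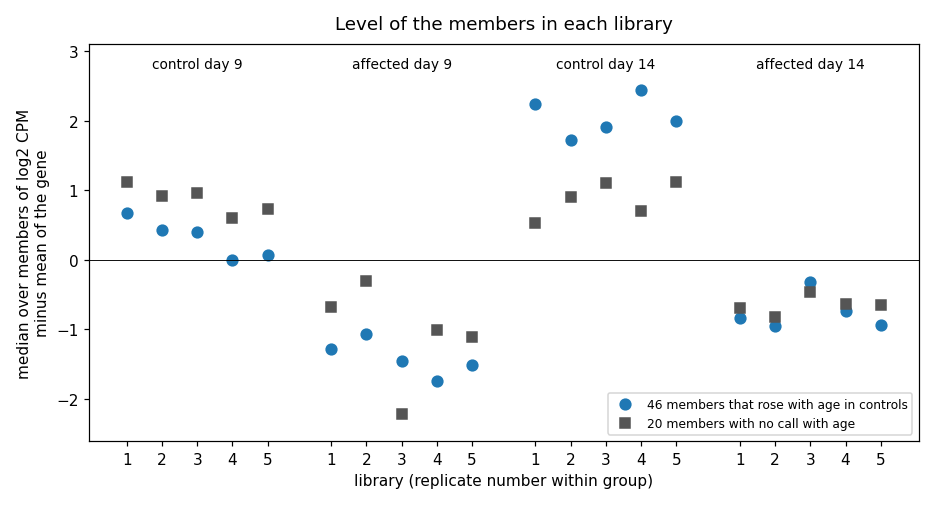
Median over members of log2 CPM minus the gene's mean, for each of the 20 libraries, for the 46 members that rose with age in controls (circles) and the 20 without a call with age (squares). Circles are highest in the day 14 controls (1.73 to 2.44), squares cover about the same range in controls of both ages, and affected day 9 replicate 3 has the lowest square (-2.21).

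Replicate 3 of the affected dogs at day 9 was lowest of its group in 15 of the 20 members without a call and highest in 0. In the 46 that rose in controls it was lowest in 12 and highest in 11. Its level minus the mean of the other 4 libraries had a median of -1.38 on the log2 CPM scale over the 20 and of 0.07 over the 46, against 0.04 over all tested genes. The sets were defined with that library in the fit, and a library far from its group also widens the spread on which a call rests. Without it, the rule gave 76 genes, 63 of them among the 69, and the median difference at day 9 of the 69 went from -1.83 to -1.65.

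The 6 members that no longer met the rule without it were on chromosome 8 from 43777933 to 43903115, chromosome 23 from 38695642 to 38697297, chromosome 25 from 20849644 to 20862414 and from 29751376 to 29781041, chromosome 27 from 22261602 to 22292402 and chromosome 28 from 33806215 to 33811331. Of them, the second gene on chromosome 25 moved most, from a difference of -1.11 to -0.49, with 0.7902 CPM in replicate 3 against 5.65 to 9.23 CPM in the other 4. The gene on chromosome 8 held 16.5 CPM in replicate 3 against 84.1 to 105 CPM, and its difference went from -1.38 to -0.87. The gene on chromosome 23 had no call with age by edgeR on all libraries. Its rise in controls was called without that library (0.55, edgeR adjusted p = 0.0432) and in a fit of the control libraries alone (0.55, edgeR adjusted p = 0.005). These 6 genes were singled out after their values were seen. Without the library, 49 members rose and 1 fell with age in controls, and 13 rose in affected dogs. In that fit 25.5% of all tested genes rose and 23.8% fell in controls, and 16.1% rose in affected dogs.

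**Figure D5:**
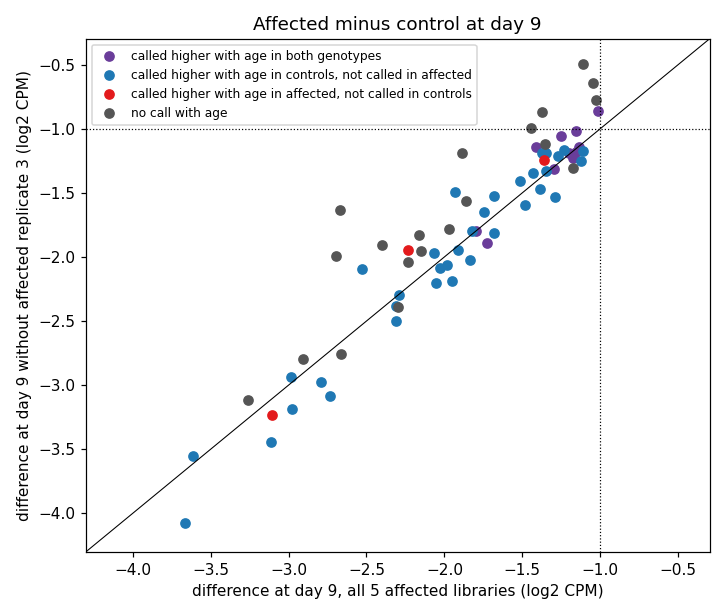
Difference between affected and control dogs at day 9 (log2 CPM) of each of the 69 members with all 5 affected libraries (x) and without affected replicate 3 (y); the solid line marks equal values and the dotted lines the threshold of -1. The 6 members above the horizontal dotted line no longer meet the rule, 5 of them without a call with age by edgeR on all libraries. The point farthest above the line of equal values is the chromosome 5 gene with 8 exons (-2.67 and -1.64).

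By annotation, the members were close to the other tested genes in size. Their median summed exon length was 2501 bases against 2312 over all tested genes, their median number of exons 8 against 9, and their median span in the genome 22.7 kb against 20.5 kb. Single-exon genes were 2 of 69 (2.90%) against 8.14% of all tested genes, and 2 members (2.90%) lay on the X chromosome against 3.81%. None was mitochondrial, and 39 were on the plus strand.

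The members were spread over 30 chromosomes and scaffolds. Chromosome 29 held the most, 6 of its 154 tested genes (3.90%), followed by chromosome 20 with 5 of 715 (0.699%). The 6 on chromosome 29 began between 7661859 and 32336302 and did not form a single cluster. Members stood next to each other in the order of tested genes at 3 places.

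On chromosome 29 the neighbours, 83.0 kb apart on the minus strand, were a gene from 7661859 to 7674898 with 6 exons and a single-exon gene from 7757863 to 7758519. The first rose with age in both genotypes, by 0.85 ± 0.19 in controls and 1.05 ± 0.20 in affected dogs (edgeR adjusted p = 0.00117 and 6.93e-04). The second held 75.0, 86.1, 173.5, 62.7 and 107 CPM in day 14 controls and 18.3, 23.1, 1.62, 23.8 and 15.1 CPM in affected dogs of day 9, and had no call with age by edgeR. Without affected replicate 3 its difference at day 9 went from -2.70 to -1.99.

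On chromosome 13, genes from 42369732 to 42488112 and from 42897655 to 42957706, 409.5 kb apart, had no call with age in either genotype by edgeR on all libraries. For the second, the change in affected dogs was 1.03 ± 0.45 (edgeR adjusted p = 0.101), and it was called by DESeq2 (1.08, adjusted p = 0.0493) and by edgeR without affected day 9 replicate 2 (1.56, adjusted p = 0.0177) or affected day 14 replicate 1 (1.25, adjusted p = 0.042). At day 9 the second held 5.69 CPM ± 0.4904 in controls, and in affected dogs 0.6398 CPM ± 0.515. On chromosome 20, genes from 33842752 to 34583360 and from 34769930 to 34791317 were 187 kb apart. The second rose by 0.69 ± 0.20 with age in controls (edgeR adjusted p = 0.00867), and the first stood at 0.01 ± 0.45. The first held 0.474 CPM in affected day 9 replicate 3 where the other four affected dogs had 4.04 to 10.3 CPM, and its difference at day 9 went from -1.89 to -1.19 without that library.

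Of the 69 members, 10 overlapped another gene of the table, and in 2 of these the overlapping gene had more than 1% of the member's counts. The gene on chromosome 5 from 32501424 to 32503129, with 8735 counts over all libraries, lay within a gene of the same strand with 3606 counts. On chromosome 26, a gene from 8730082 to 8996271 with 332 counts contained a short gene of the same strand with 55931 counts. Values of these 2 members are uncertain, since the treatment of reads that fit several genes is not given in the sources used here.

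The members nearest to the threshold inside it had a weaker difference of -1.002 (the chromosome 29 gene with 6 exons, at day 14), -1.02 (chromosome 27 from 22261602, at day 9) and -1.03 (chromosome 23 from 38695642, at day 9). The 3 nearest outside, with separate ranges at both ages, had -0.99 on chromosome 22 from 55567672 to 55609709, -0.97 on chromosome 24 from 21212809 to 21269494 and -0.97 on the X chromosome from 10216880 to 10260956. Lower ranges at both ages with any fold were found in 146 genes (1% of those tested), and another 86 genes met the fold at both ages with overlapping ranges.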

How the data were processed

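The 20 libraries came from a stranded mRNA kit and were mapped, per the labels' protocols, to CanFam3.1 and the Ensembl 77 gene models. Tools named by the submitters, in their processing notes and with no role stated, were STAR 2.4.0j, HTSeq, edgeR, CASAVA 1.8.2 and bcl2fastq; the handling of strand and of multiply mapped reads is not given in the sources used here. The authors' table gives unnormalised counts of 24580 genes, with other columns for position, exon number and length, and 0 count columns without a sample. Libraries were treated as separate animals by their labels, and no pair within a group was alike within sampling noise (chi-square per gene 16.7 to 607, 40 pairs). Of counts under 200, 65.2% to 76.4% per library were even, as when both mates are counted, so fits were repeated with counts halved.

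The deposited counts went into edgeR 4.0.16 (R 4.3.3): filterByExpr on the 4 groups (14550 genes kept, cutoff 0.456 CPM in at least 5 libraries), TMM scaling, 1 fit with a mean per group (robust glmQLFit, glmQLFTest) and Benjamini-Hochberg adjustment over all tested genes, threshold 0.05. Standard errors are the fold change over the square root of F. DESeq2 1.42.0 was an alternative. The code of the test was run on simulated counts with no outlying library and no litters, and that of the rule on a few made-up genes. No result here rests on these runs. Members and lists were chosen with earlier results of these data known. Genes named are the members highest in controls (6), most different over both ages (4), most changed with age (4 per direction in controls, 4 in affected dogs), nearest the threshold, and adjacent to each other. Lists of marker and pathway genes were not used, since identifiers had no symbols.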

Additional observations from a re-analysis of the deposited data

Results flagged for a closer look

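In 108 groups of 5 libraries (24 named members, the members' summed level, their median level and the total counts, in the 4 groups), 6 had a library separated from the others by a gap that took most of the group's range; chance flags about 1 in 20 such groups. Affected day 14 replicate 3 accounted for 4 of the 6: the members' summed level was 1955 CPM there and 1071 to 1273 CPM in the other four libraries, and their median level minus the gene's mean was -0.35 against -0.87 to -0.74. In the same library the chromosome 3 gene from 19778971 held 122 CPM against 72.3 to 80.0 CPM, and the chromosome 5 gene with 10 exons held 597 CPM against 238 to 341 CPM. These 4 overlap, since both genes are part of the summed level and of the median level. Without the chromosome 5 gene the sum was 1358 CPM in that library and 792.5 to 1036 CPM in the other four. The rate of 1 in 20 holds for separate groups, so nothing is read from the count of 6. In day 9 controls, the chromosome 10 gene from 10406866 held 0.598 CPM in replicate 2 against 0.0881 to 0.232 CPM, and the chromosome 20 gene from 34769930 held 21.99 CPM in replicate 5 against 30.0 to 32.8 CPM.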

How the results depend on the processing

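The number of genes that met the rule was 63 to 71 under median-ratio scaling, without the filter, with counts halved and with a prior count of 0.5, and 67 to 94 when each library was left out in turn, highest without control day 9 replicate 4. It was 155 with the fold threshold alone and 110 with a 1.5-fold threshold. The count of members called with age in controls was 44 to 55 over these alternatives and 44 to 50 when libraries were left out. In affected dogs it was 4 when the fit held affected libraries alone and 9 to 21 when libraries were left out; the cause was not tested. The count called lower in controls, 0 in the report, was 1 with counts halved, 2 with only the control libraries, and 1 without affected day 9 replicate 1 or 3. Leaving out libraries was run for single genes only on the named members. Among these, values with age that had no call and changed sign were those in controls of the chromosome 20 gene from 33842752 (-0.20 to 0.15) and those in affected dogs of the chromosome 5 genes from 28978383 (-0.25 to 0.52) and from 81142888 (-0.16 to 0.45), the chromosome 20 gene from 33842752 (-0.12 to 0.54), the chromosome 23 gene from 38695642 (-0.17 to 0.27) and the chromosome 29 gene from 32336302 (-0.54 to 0.0168). No paired analysis was possible because the labels carry no replicate or litter number that links animals across groups. Members with a mean under 1 CPM rest on few counts per library. Lists that need gene symbols were not run.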
